A study of Sus scrofa with 50 samples.

Results

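The ET and L types of Korean minipig (Sus scrofa) were compared for how the difference between the types in backfat departs from the difference between the types in tenderloin. The quantity tested was the interaction, which is ET minus L in backfat minus ET minus L in tenderloin. It used 18 of the 50 libraries of the series, which are the backfat and the tenderloin of 9 animals. The ET animals were S0235, S0242 and S0276 together with S0309 and S0326 (n = 5). The L animals were S0349, S0377, S0384 and S0385 (n = 4). Another L animal, S0355, was left out because its backfat library carried muscle transcripts. Each animal gave both tissues, and values below are in this order of animals. The labels give the type, the tissue and the animal number of each library. What the letters ET and L stand for, and the age, sex and feeding of the animals, are not given in the sources used here, so nothing that went with the type can be told apart from it.

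Values are TPM, a share of all transcripts corrected for transcript length, summed over the assembled transcripts that share a closest Swiss-Prot protein entry. Each such sum is called a gene, and 14163 of 17556 genes had a mean of at least 1 TPM over the 18 libraries and were tested. Of these, 12061 had a mean of at least 1 TPM in each tissue, and opposite directions were counted among them. Differences are in log2(TPM + 1), with their standard errors (SE), and a gene was called at a Benjamini-Hochberg adjusted p under 0.05 in limma.

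Backfat is subcutaneous adipose tissue, where adipocytes take up fatty acids from circulating lipoproteins, build triglyceride and release it by lipolysis. Tenderloin is a skeletal muscle, whose oxidative fibres burn fatty acids in mitochondria. Several enzymes serve both tissues, among them lipoprotein lipase, which frees fatty acids from lipoproteins at the capillary wall, and adipose triglyceride lipase, which makes the first cut in stored triglyceride.

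The tissues carried the markers of their labels. The summed level of 5 skeletal muscle markers (CKM, ACTA1, MYLPF, TNNC2 and MYL2) was 65196 to 95515 TPM in ET tenderloin and 56946 to 97259 TPM in L tenderloin. In backfat it was 1.17 to 122 TPM in ET and 10.2 to 248 TPM in L. The summed level of 5 adipocyte markers (ADIPOQ, PLIN1, CIDEC, LEP and FABP4) was 7960 to 17847 TPM in ET backfat and 475 to 7322 TPM in L backfat, so adipocyte RNA took a smaller share of the L backfat libraries, which did not overlap the ET ones. In tenderloin the same sum was 26.6 to 75.7 TPM in ET and 7.69 to 86.6 TPM in L, with ADIPOQ, the adipocyte hormone adiponectin, at no more than 3.64 TPM in any tenderloin library. In bulk tissue, fewer adipocytes and less RNA per adipocyte cannot be told apart. Other marker sums were also apart between the types in backfat. For 3 red blood cell markers (HBA, HBB and ALAS2) the sum was 95.0 to 647 TPM in ET backfat and 2.92 to 67.5 TPM in L backfat. For 3 T cell markers (CD3E, CD2 and CD247) it was 57.2 to 217 TPM in ET backfat and 9.33 to 52.4 TPM in L backfat. CD247 made up most of it, with means of 136 TPM in ET and 21.7 TPM in L. CD3E (2.13 and 0.152 TPM) and CD2 (2.77 and 0.268 TPM) were low. For 3 B cell markers (CD79A, CD79B and MS4A1) it was 12.03 to 16.9 TPM in ET backfat and 23.8 to 38.6 TPM in L backfat. That sum was nearly all CD79A, with means of 14.3 TPM in ET and 29.9 TPM in L. CD79B went the other way, at 0.22 and 0.134 TPM, and MS4A1 was at 0.0583 and 0.075 TPM. The B cell sum thus rests on 1 gene. The part that these marker levels have in the differences below was not tested.

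The interaction was called for 677 genes, 4.78% of those tested, with 593 higher (4.19%) and 84 lower (0.593%). Of the called genes, 547 were present in both tissues (4.54% of the 12061), and 410 of these (3.40% of the 12061) had opposite directions, which is 75.0% of the called genes in both tissues. Called or not, 43.5% of the 12061 genes had opposite directions. Among the 410, 363 were higher in ET backfat with a lower level in ET tenderloin (3.01%), and 47 were lower in ET backfat with a higher level in ET tenderloin (0.390%). Without a call, the shares of all genes in these directions were 30.2% and 13.2%. After the libraries of each tissue were scaled to a common median ratio, 383 genes were called higher and 150 lower. Of these called genes, 244 and 84 had opposite directions in the same order. Higher calls were 71.9% of the called genes with this scaling and 87.6% without it.

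The 2 sides of the opposition were not of like strength. The 410 genes were chosen by call and sign from these same values. Their larger differences, smaller p values and fewer overlaps than all genes come with that choice and are no separate evidence. The median difference over the 363 genes was 1.43 in backfat and -0.46 in tenderloin, against 0.29 and 0.05 over all genes tested. Over the 47 genes the medians were -1.12 in backfat and 0.73 in tenderloin. In 96 of the 410 genes the tenderloin difference was under 0.25 in size, so its sign is weakly set. Tested alone, backfat had 810 genes higher in ET (5.72%) and 105 lower (0.741%), while tenderloin had 4 higher (0.0282%) and 1 lower (0.00706%). Among the 410 genes, 224 were called in backfat alone and 0 in tenderloin alone, so that 0 genes were called with opposite directions in both tissues by limma. At an unadjusted p under 0.05, 166 of the 410 passed in tenderloin, against 16.9% of all genes tested, and 371 in backfat, against 25.0%. These shares are over the 14163 genes tested, while the 410 come from the 12061 present in both tissues. With entries of the same protein merged over species, 3 genes were called in both tissues alone, which were CA3, PNPLA2 and the heparan sulfate sulfotransferase entry HS3S6. In 24 of the 410 genes the ET and L animals overlapped in neither tissue, and 25 of the 12061 genes (0.207%) did so with opposite directions, called or not. Of the 24, 23 had ET above L in backfat and below it in tenderloin, as had 0.191% of the 12061. In tenderloin alone, the types did not overlap for 62 of the 410, against 6.39% of the 12061. With S0355 added, 34 of the 85 named genes lost their call, among them ACADVL, GYS1, HK2, SLC2A4, LIMS2 and TMSB4X.

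**Figure D1:**
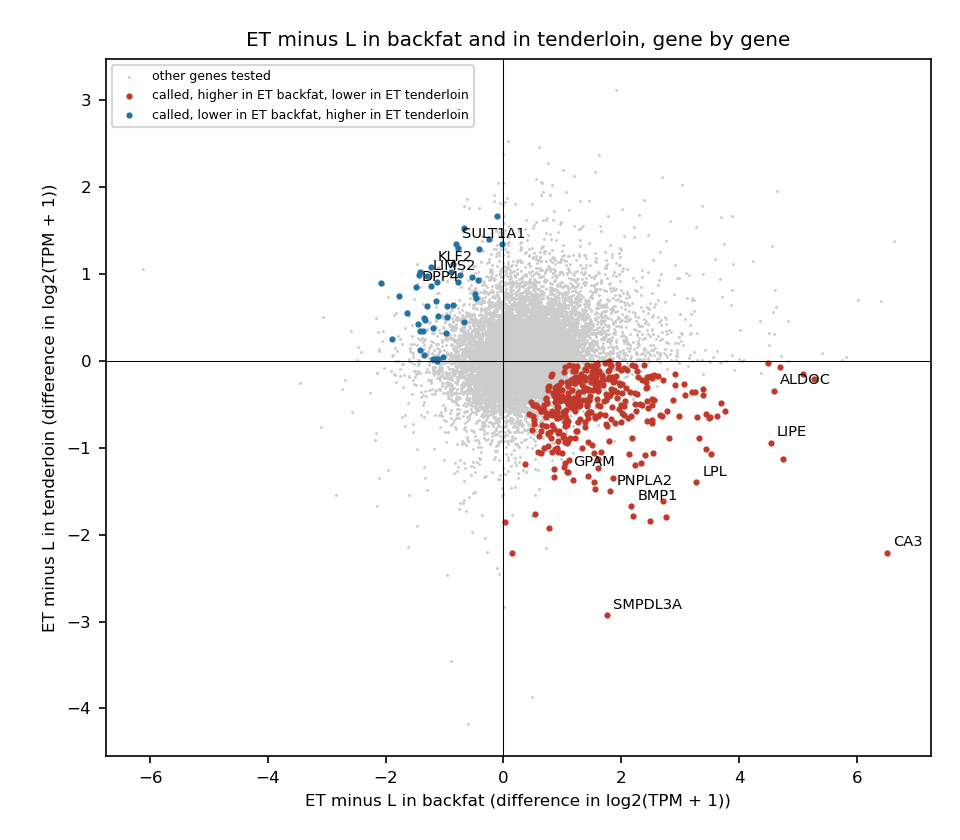
ET minus L in backfat (horizontal) and in tenderloin (vertical) as differences in log2(TPM + 1), 1 point per gene tested, with the 363 called genes higher in ET backfat and lower in ET tenderloin in red and the 47 in the reverse directions in blue. CA3 lies farthest out at 6.50 in backfat and -2.21 in tenderloin, and the red points spread much farther along the backfat axis than along the tenderloin axis.

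CA3, a cytosolic carbonic anhydrase abundant in slow muscle fibres and in adipocytes, had the largest interaction of the named genes, at 8.71 (SE 0.94, adjusted p = 0.00256). In backfat it was at 534, 1150, 63.2, 371 and 383 TPM in the ET animals, against 6.01, 0.707, 7.16 and 1.39 TPM in the L animals. In tenderloin it was at 587, 238, 422, 407 and 437 TPM in the ET animals, against 984, 4170, 1959 and 1486 TPM in the L animals. The types overlapped in neither tissue, with every ET backfat library above the L ones and every ET tenderloin library below them. The ET minus L difference was 6.50 in backfat (SE 0.77, adjusted p = 0.00692) and -2.21 in tenderloin (SE 0.39, adjusted p = 0.0683). Loin, a second muscle of the same animals, went the other way from tenderloin for this gene, with a mean of 1862 ± 556 TPM in ET and 536 ± 311 TPM in L (SD, n = 5 and 4) and a difference of 1.89 (SE 0.33, adjusted p = 0.00588).

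Of 13 genes tested of lipolysis and its control, 10 were called higher in the interaction and 0 lower, and 4 of the 11 present in both tissues were called with opposite directions. The median difference over those 11 genes was 2.67 in backfat and -0.17 in tenderloin, against 0.30 and 0.04 over the 12061 genes. Over all genes tested, 4.19% were called higher and 0.593% lower, and 3.4% of the 12061 were called with opposite directions. The counts of this and the later lists stand against these shares. PNPLA2, the adipose triglyceride lipase, was at 793, 738, 262, 721 and 570 TPM in ET backfat, against 354.5, 104, 108 and 176 TPM in L backfat. The tenderloin levels were 72.9, 124, 115, 138 and 62.4 TPM in ET, against 396, 328, 207 and 225 TPM in L. Only the ET animal S0276 overlapped the L animals in backfat, and no ET animal did in tenderloin. Its differences were 1.81 in backfat (SE 0.43, adjusted p = 0.0349) and -1.50 in tenderloin (SE 0.28, adjusted p = 0.0683), and its interaction was 3.32 (SE 0.45, adjusted p = 0.00498).

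LPL, the lipoprotein lipase, is secreted by adipocytes and muscle fibres. It was at 181, 549, 98.4, 576 and 375 TPM in ET backfat, against 14.04, 49.4, 36.8 and 28.9 TPM in L backfat. In the muscle the values were 69.1, 71.4, 31.2, 72.2 and 37.2 TPM in ET, against 121, 316, 87.6 and 116 TPM in L. No animal crossed over in either tissue. Its interaction was 4.66 (SE 0.48, adjusted p = 0.00243), with differences of 3.27 in backfat (adjusted p = 0.0128) and -1.39 in tenderloin (adjusted p = 0.145).

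The hormone-sensitive lipase LIPE, which cuts diacylglycerol, averaged 870 ± 304 TPM in ET backfat and 53.8 ± 63.3 TPM in L backfat (SD, n = 5 and 4). In tenderloin its means were 15.9 ± 9.23 TPM in ET and 31.5 ± 15.4 TPM in L, where the values overlapped. AQP7, the aquaporin that lets glycerol out of adipocytes, had differences of 3.52 in backfat and -1.07 in tenderloin. The interactions of LIPE and AQP7 were 5.48 (adjusted p = 0.0103) and 4.60 (adjusted p = 0.0141). Each of CA3, PNPLA2, LPL, LIPE and AQP7 stayed called when any 1 of the 9 animals was left out.

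In the list of fatty acid and triglyceride synthesis, 11 of 24 genes tested were called higher and 0 lower, with 6 of the 20 present in both tissues called with opposite directions. Their medians were 1.95 in backfat and -0.11 in tenderloin. GPAM, the mitochondrial acyltransferase that opens glycerolipid synthesis, had its larger difference in muscle. It was at 8.86, 7.48, 5.69, 13.2 and 9.16 TPM in ET backfat, against 7.66, 2.12, 2.82 and 3.15 TPM in L backfat. In tenderloin it was at 25.7, 20.4, 10.7, 21.7 and 18.2 TPM in ET, against 39.1, 57.4, 44.5 and 47.2 TPM in L, with no overlap. The differences were 1.07 in backfat (adjusted p = 0.0938) and -1.28 in tenderloin (adjusted p = 0.0683), and the interaction was 2.35 (SE 0.39, adjusted p = 0.0101).

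AGPAT1, which adds the second acyl chain after GPAM, was mostly a backfat gene, at 91 to 445 TPM in ET backfat, against 10.3 to 29.0 TPM in L backfat. In tenderloin its range was 2.10 to 4.36 TPM in ET and 5.08 to 6.84 TPM in L, again with no overlap. With its 3 entries merged, the tenderloin difference of AGPAT1 was -0.33 (adjusted p = 0.292), against -0.61 for this entry. Its interaction was 4.05 (SE 0.42, adjusted p = 0.00243). DGAT2, which completes the triglyceride, had an interaction of 5.48 (adjusted p = 0.0114) made of 5.27 in backfat and only -0.21 in tenderloin. MLXIPL, the carbohydrate-responsive transcription factor ChREBP, had 3.48 in backfat and -0.66 in tenderloin (interaction 4.15, adjusted p = 0.0107). These 4 genes stayed called without any 1 animal.

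**Figure D2:**
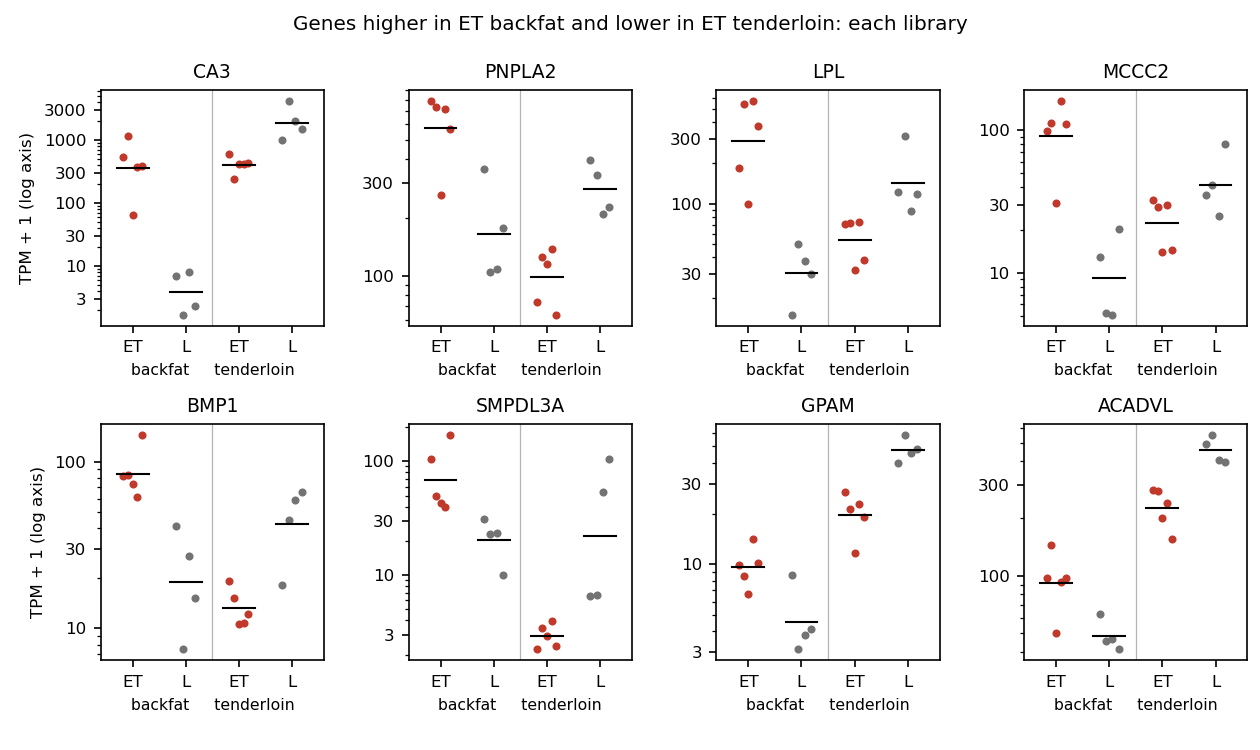
TPM + 1 on a log axis in each library for 8 genes, with ET libraries (red) left of L libraries (grey) in backfat and in tenderloin, and a bar at the mean of log2(TPM + 1). In each panel the ET bar lies above the L bar in backfat and below it in tenderloin. In CA3, LPL and SMPDL3A the types do not overlap in either tissue.

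Fatty acid oxidation genes had opposite signs in most members of the list. Of 24 genes tested, 7 were called higher and 0 lower, and all 7 had opposite directions. Called or not, 17 of the 23 genes present in both tissues were higher in ET backfat and lower in ET tenderloin, against 30.2% of all such genes. The medians were 0.95 in backfat and -0.28 in tenderloin. ACADVL, which starts the oxidation of long-chain fatty acids, was at 96.2, 144, 48.9, 91.5 and 96.2 TPM in ET backfat, against 62.0, 44.5, 45.6 and 40.1 TPM in L backfat. The tenderloin levels were 282, 279, 199, 241.6 and 155 TPM in ET, against 491, 547, 405 and 395 TPM in L. Its interaction was 1.92 (SE 0.30, adjusted p = 0.00861), with 0.92 in backfat (adjusted p = 0.0827) and -1.01 in tenderloin (adjusted p = 0.0810).

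The thioesterase ACOT2 had differences of 1.79 in backfat and -0.92 in tenderloin. ETFDH, which passes electrons from fatty acid oxidation to the respiratory chain, had 1.49 and -0.58 in the same order, and HADHB, a subunit of the trifunctional protein, had 0.94 and -0.80. Their interactions had adjusted p values of 0.0101, 0.0180 and 0.0191. ACADVL and ACOT2 stayed called without any 1 animal. The call of ETFDH was lost without S0326 (adjusted p = 0.0513) and without S0377 (0.0564), and that of HADHB without S0326 (0.0523) and without S0384 (0.0544).

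Breakdown of branched-chain amino acids and ketone bodies, which feeds the same mitochondria, gave 6 of 23 genes called higher and 0 lower, all 6 with opposite directions. Among the 22 present in both tissues, 16 were higher in ET backfat and lower in ET tenderloin, against 30.2% of all such genes. The medians were 1.32 in backfat and -0.20 in tenderloin. MCCC2, a subunit of the carboxylase of leucine breakdown, had the smallest adjusted p of the interaction, shared with LPL, AGPAT1 and ALDOC. It was at 98.4, 111, 29.6, 160 and 110 TPM in ET backfat, against 11.99, 4.18, 4.06 and 19.2 TPM in L backfat. In the muscle the values were 31.3, 27.8, 13.0, 28.8 and 13.3 TPM in ET, against 34.2, 40.4, 24.1 and 79.5 TPM in L. The types were apart in backfat and overlapped in tenderloin. Its interaction was 4.21 (SE 0.41, adjusted p = 0.00243), with 3.32 in backfat and -0.89 in tenderloin (adjusted p = 0.263).

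OXCT1, which activates ketone bodies for use as fuel, had an interaction of 4.27 (adjusted p = 0.00516). Its differences were 3.63 in backfat and -0.64 in tenderloin (SE 0.36, adjusted p = 0.392). MUT, the last enzyme of propionate breakdown, had 1.85 and -0.36 in the same order (interaction adjusted p = 0.0101, tenderloin adjusted p = 0.491). PCCB, a subunit of propionyl-CoA carboxylase, had 2.05 in backfat but -0.08 in tenderloin (SE 0.18, adjusted p = 0.853). Its call was lost without any of S0242, S0326, S0377 and S0384 (adjusted p 0.0568 to 0.0683). Of 30 nuclear genes of the respiratory chain and ATP synthase, 2 were called, both higher with opposite signs. Over all genes tested, 4.19% were called higher. SDHC had 1.24 in backfat and -0.80 in tenderloin, and SDHA had 1.54 and -0.08. The tenderloin difference of SDHA had an SE of 0.22 and an adjusted p of 0.878. SDHC lost its call without any of S0242, S0326, S0377 and S0384 (adjusted p 0.0518 to 0.0655), and SDHA kept it only without S0276 or S0385 (adjusted p up to 0.109 otherwise). SDHA also lost it with scaling (0.0590) and with 1 transcript per gene (0.0557). The median of the 30 genes was 0.65 in backfat and 0.02 in tenderloin. After scaling the medians were 0.32 and -0.07, against 0.0055 and -0.04 over all genes in both tissues.

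Genes of glycolysis and glycogen had 7 of 31 called higher and 0 lower, with 6 of 30 called with opposite directions, while the medians of the list were alike at 0.57 in backfat and 0.50 in tenderloin. PFKFB3, which makes the activator of phosphofructokinase, was at 96.8, 213, 49.5, 109 and 65.8 TPM in ET backfat, against 29.3, 9.80, 9.30 and 23.3 TPM in L backfat. In tenderloin it was at 10.1, 5.12, 32.9, 4.80 and 3.29 TPM in ET, against 4.27, 22.1, 33.2 and 256 TPM in L. The tenderloin values overlapped and were led by the single L animal S0385. The interaction was 4.34 (SE 1.103, adjusted p = 0.0475), and the call was kept only without S0276 or S0349 (adjusted p 0.0766 to 0.129 without any other animal). It was also lost with a pseudocount of 0.1 (0.0593), with no filter (0.0722), with scaling (0.0630) and with 1 transcript per gene (0.0536).

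HK2, the hexokinase of insulin-sensitive tissues, had 3.76 in backfat and -0.58 in tenderloin (interaction 4.34, adjusted p = 0.0130). GYS1, the muscle glycogen synthase, had 1.30 and -0.67 in the same order (interaction 1.97, adjusted p = 0.0121). ALDOC, an aldolase best known from brain, averaged 2020 ± 1447 TPM in ET backfat and 70.2 ± 40.8 TPM in L backfat (SD, n = 5 and 4), and its tenderloin difference was only -0.34, on 3.61 TPM in ET and 4.80 TPM in L. GYS2, the liver form of glycogen synthase, was at 36.7 TPM in ET backfat and 2.36 TPM in L backfat, and its tenderloin mean was under 1 TPM in both types.

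Among adipokines, insulin signalling and glucose uptake, 6 of 23 genes were called higher and 0 lower. Of the 20 in both tissues, 4 were called with opposite directions. The medians were 0.75 in backfat and -0.17 in tenderloin. SLC2A4, the insulin-regulated glucose carrier GLUT4, was at 26.1, 90.2, 11.14, 32.4 and 133 TPM in ET backfat, against 8.17, 0.633, 0.972 and 5.33 TPM in L backfat. Its tenderloin levels were 149 to 290 TPM in ET, against 268 to 384.8 TPM in L. The types were apart in backfat, and in tenderloin 1 ET animal, S0242, lay above the lowest L animals. Its interaction was 4.16 (adjusted p = 0.0121).

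AKT2, the kinase through which insulin acts on glucose uptake, did not overlap between the types in either tissue. It was at 158 to 435 TPM in ET backfat, against 36.5 to 88.7 TPM in L backfat, and at 29.1 to 58.4 TPM in ET tenderloin, against 59.8 to 69.1 TPM in L tenderloin. The interaction was 2.81 (adjusted p = 0.00812). ADIPOR2, an adiponectin receptor, had 3.28 in backfat and -0.65 in tenderloin (interaction adjusted p = 0.00941). LEP, the adipocyte hormone leptin, averaged 106 TPM in ET backfat and 0.0131 TPM in L backfat and was not present in tenderloin, so it had an interaction of 5.73 (adjusted p = 0.0105) without an opposition.

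Other genes with the largest opposition came from no single pathway. SMPDL3A, a secreted phosphodiesterase, had the largest tenderloin difference of the 363 genes, at -2.93 (SE 0.76, adjusted p = 0.130). It was at 1.23, 2.46, 1.94, 2.95 and 1.38 TPM in ET tenderloin, against 5.54, 5.69, 52.7 and 103 TPM in L tenderloin. In backfat it was at 104, 48.2, 42.3, 38.6 and 168 TPM in ET, against 30.3, 21.8, 22.5 and 8.97 TPM in L. The types overlapped in neither tissue, and the interaction was 4.69 (SE 1.04, adjusted p = 0.0275). That call was lost without S0235 (adjusted p = 0.0596), S0326 (0.0748) or S0384 (0.0864).

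BMP1, the protease that trims procollagen, was at 80.6, 81.9, 72.0, 60.7 and 143 TPM in ET backfat, against 40.0, 6.50, 26.2 and 14.3 TPM in L backfat. The tenderloin levels were 18.3, 14.1, 9.64, 9.72 and 11.2 TPM in ET, against 17.3, 43.4, 57.5 and 65.1 TPM in L. A single pair, S0235 and S0349, crossed in tenderloin. Its interaction was 3.83 (SE 0.64, adjusted p = 0.0103), with 2.16 in backfat (adjusted p = 0.0256) and -1.67 in tenderloin (adjusted p = 0.0887). CDK18, a cyclin-dependent kinase, had no overlap in either tissue. Its range was 9.46 to 22.3 TPM in ET backfat and 0.180 to 6.15 TPM in L backfat, and 0.681 to 2.85 TPM in ET tenderloin and 4.002 to 19.1 TPM in L tenderloin (interaction 3.99, adjusted p = 0.00498). TENT5B, a poly(A) polymerase of the TENT5 family, averaged 18.1 ± 11.6 TPM in ET backfat and 1.44 ± 0.399 TPM in L backfat, and 6.35 ± 4.46 TPM in ET tenderloin and 21.9 ± 15.4 TPM in L tenderloin (SD, n = 5 and 4; interaction 4.33, adjusted p = 0.00516). BMP1, CDK18 and TENT5B stayed called without any 1 animal.

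GLUL, glutamine synthetase, was divided between 2 Swiss-Prot entries. The pig entry averaged 1200 ± 1007 TPM in ET backfat and 520 ± 200 TPM in L backfat, and 343 ± 90.0 TPM in ET tenderloin and 916 ± 508 TPM in L tenderloin (SD, n = 5 and 4). Its interaction was 2.10 with an adjusted p of 0.0499, the closest of all opposite genes to the threshold with a lysine demethylase entry, KDM5C_PIG, at the same adjusted p. The nearest genes outside it were the entries ERLN2_PONAB and S61A2_MOUSE, at 0.05001 and 0.05011. The dog entry, GLNA_CANLF, was at 25.0 TPM in ET backfat and 3.24 TPM in L backfat, and 16.3 TPM in ET tenderloin and 85.7 TPM in L tenderloin (interaction 4.55, adjusted p = 0.0202). With both entries merged the interaction was 2.18 (adjusted p = 0.0429). The pig entry kept its call only without S0235, S0276 or S0349 (adjusted p 0.0840 to 0.124 without any other animal), and the dog entry lost it without S0326 (0.0549), S0377 (0.0593) or S0384 (0.0670). The GLUL pig entry also lost its call without the animal block (0.107), with a pseudocount of 0.1 (0.0593) or 5 (0.0529), with no filter (0.0743), with scaling (0.0694) and with 1 transcript per gene (0.0565).

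GTF2IRD2B, a member of a family of near-identical copies whose reads can be divided between them, was led in tenderloin by the L animal S0385 at 59.7 TPM, and the other 3 L animals (2.16 to 3.68 TPM) lay within the ET range of 0.707 to 6.05 TPM. Its interaction of 3.02 (adjusted p = 0.0490) was kept only without S0349 or S0385 (adjusted p 0.0618 to 0.1203 without any other animal). At an E value of at most 1e-50 its differences were 0.57 in backfat and -0.35 in tenderloin (interaction adjusted p = 0.167), and the call was also lost without the animal block (0.0977), with a pseudocount of 5 (0.0930), with no filter (0.0743), with scaling (0.0757) and with 1 transcript per gene (0.126).

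AIFM2, a ferroptosis suppressor, had 1.61 in backfat and -1.13 in tenderloin (interaction 2.74, adjusted p = 0.00812). It was the only 1 of 26 stress, arrest and antioxidant genes called, a share no higher than the 4.78% of all genes tested. CRYAB, a small heat shock protein of muscle, averaged 360 ± 378 TPM in ET backfat and 47.3 ± 19.6 TPM in L backfat, and 4005 ± 3920 TPM in ET tenderloin and 7112 ± 3000 TPM in L tenderloin (SD, n = 5 and 4). Its interaction was 3.48 (adjusted p = 0.0180), and the call was lost without S0377 (0.0545) or S0384 (0.0521). BAG3, a co-chaperone, had 0.92 and -0.53 in the same order of tissues (interaction adjusted p = 0.0388), kept only without S0235, S0276 or S0349 (0.0723 to 0.0986 otherwise) and lost without the animal block (0.0920), with scaling (0.0708) and with 1 transcript per gene (0.0628). These were the 2 called of 19 heat shock and chaperone genes, whose medians were 0.56 and -0.29. Called or not, 13 of the 19 were higher in ET backfat and lower in ET tenderloin, against 30.2% of all genes in both tissues.

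Of 18 glucocorticoid-induced genes, GLUL and the transcription factor CEBPB were called, both with opposite signs, against 4.78% called of all genes tested. The list's medians were -0.04 in backfat and -0.62 in tenderloin. CEBPB had 1.01 in backfat and -0.86 in tenderloin (adjusted p = 0.0223), lost without S0235 (0.0516), S0326 (0.0626) or S0384 (0.0754). DIO2, the deiodinase that activates thyroid hormone, averaged 2.02 ± 0.660 TPM in ET backfat and 0.460 ± 0.137 TPM in L backfat, and 2.20 ± 1.82 TPM in ET tenderloin and 5.88 ± 2.13 TPM in L tenderloin (SD, n = 5 and 4; interaction 2.24, adjusted p = 0.0170). Its call was lost without S0377 (0.0511) or S0384 (0.0592). Of 19 growth hormone and IGF genes, IGF2R and GHR were called, both higher with opposite signs, against 4.19% called higher of all genes tested. Their tenderloin differences were -0.40 and -0.28. The call of GHR (adjusted p = 0.0493) was kept only without S0276, and reached 0.123 without S0377. It was also lost with a pseudocount of 0.1 (0.0583) or 5 (0.0544), with no filter (0.0712), with scaling (0.0555) and with 1 transcript per gene (0.0582).

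The reverse opposition, lower in ET backfat and higher in ET tenderloin, held 47 called genes. LIMS2, an adaptor of integrin adhesions also named PINCH-2, was at 186, 108, 296, 110 and 106 TPM in ET backfat, against 446, 333, 383 and 311 TPM in L backfat. In the muscle the values were 37.6, 42.2, 46.97, 52.3 and 44.5 TPM in ET, against 21.2, 15.6, 28.5 and 25.4 TPM in L. It was the only named gene of this direction whose types overlapped in neither tissue. Its interaction was -2.28 (SE 0.37, adjusted p = 0.00953), with -1.30 in backfat (adjusted p = 0.0386) and 0.97 in tenderloin (adjusted p = 0.0716).

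DPP4, a cell surface peptidase that marks progenitors of the adipose interstitium in mouse, was at 1.01, 0.374, 2.003, 1.39 and 0.448 TPM in ET backfat, against 10.03, 5.03, 2.67 and 2.74 TPM in L backfat. In tenderloin it was at 8.60, 8.35, 7.95, 13.4 and 8.84 TPM in ET, against 8.96, 6.600, 3.26 and 2.23 TPM in L. The types were apart in backfat, and 1 L animal, S0349, lay within the ET values in tenderloin. The interaction was -2.34 (SE 0.33, adjusted p = 0.00516). DPP4 was the only called gene of 15 fibroblast progenitor markers, against 4.78% called of all genes tested. The medians of that list were 0.77 in backfat and 0.74 in tenderloin. LIMS2 and DPP4 stayed called without any 1 animal.

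**Figure D3:**
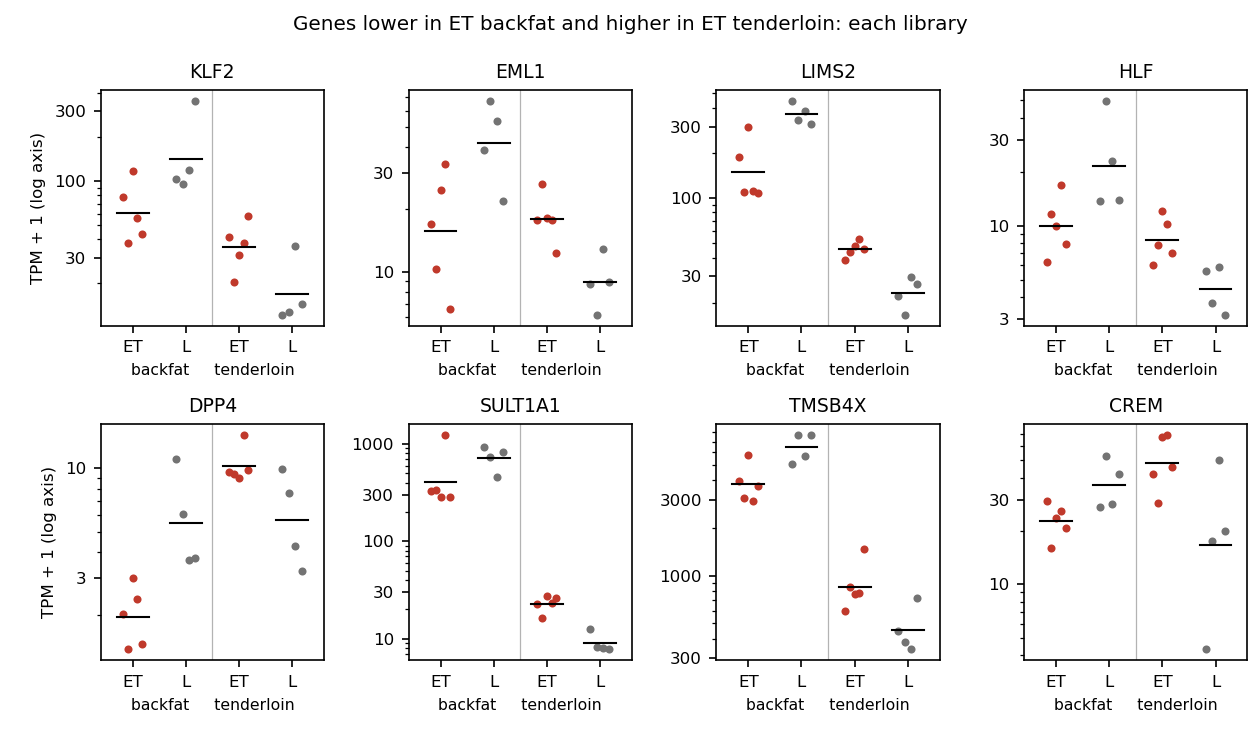
TPM + 1 on a log axis in each library for 8 genes, with ET libraries (red) left of L libraries (grey) in backfat and in tenderloin, and a bar at the mean of log2(TPM + 1). In each panel the ET bar lies below the L bar in backfat and above it in tenderloin, and in LIMS2 the types do not overlap in either tissue.

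SULT1A1, a phenol sulfotransferase, was at 326.3, 333, 286, 1230 and 286 TPM in ET backfat, against 922, 736, 454 and 825 TPM in L backfat. The tenderloin levels were 21.8, 15.4, 26.4, 22.2 and 25.0 TPM in ET, against 11.6, 7.27, 6.94 and 6.77 TPM in L, with no overlap. The ET animal S0309 stood above all L animals in backfat. The interaction was -2.15 (SE 0.44, adjusted p = 0.0221), with 1.35 in tenderloin (adjusted p = 0.0608) and -0.81 in backfat (adjusted p = 0.279), and it was lost without S0326 (0.0617) or S0377 (0.0598). With S0355 included, the backfat difference of SULT1A1 was 0.39 and thus no longer opposite.

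KLF2, a flow-responsive transcription factor of endothelium, averaged 65.6 ± 32.6 TPM in ET backfat and 167 ± 125 TPM in L backfat, and 36.7 ± 13.7 TPM in ET tenderloin and 17.9 ± 11.6 TPM in L tenderloin (SD, n = 5 and 4). Its interaction was -2.31 (adjusted p = 0.0395), kept only without S0276 or S0384 (0.0600 to 0.0954 otherwise) and lost with no filter (0.0583) and with 1 transcript per gene (0.0517). EML1, a microtubule-binding protein, averaged 17.3 ± 10.8 TPM in ET backfat and 44.4 ± 19.5 TPM in L backfat, and its tenderloin values of 11.4 to 25.6 TPM in ET and 5.17 to 11.9 TPM in L overlapped by 1 library of each type (interaction -2.44, adjusted p = 0.0241). HLF, a clock-output transcription factor, had -1.12 in backfat and 0.91 in tenderloin (interaction -2.03, adjusted p = 0.0275). EML1 lost its call without any of S0242, S0326, S0377 and S0384 (0.0512 to 0.0692), and HLF without any of S0235, S0326, S0377 and S0384 (0.0520 to 0.0725).

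TMSB4X, the actin-binding thymosin beta-4, was at 2958 to 5744 TPM in ET backfat, against 5061 to 7680 TPM in L backfat, and at 593 to 1470 TPM in ET tenderloin, against 342 to 719 TPM in L tenderloin. Its interaction was -1.68 (adjusted p = 0.0248), lost without any of S0242, S0309, S0326, S0377 and S0384 (0.0529 to 0.0809). CREM, a transcriptional modulator of cAMP signalling, had -0.67 in backfat and 1.53 in tenderloin (adjusted p = 0.0479), and its call was kept only without S0384 (0.0640 to 0.123 otherwise). With hits limited to an E value of 1e-50, the differences of CREM were -0.46 and 0.17 (interaction adjusted p = 0.468), and its call was also lost without the animal block (0.0661), with a pseudocount of 0.1 (0.0590), with no filter on low values (0.0683) and with 1 transcript per gene (0.0578). ND3, a subunit of complex I encoded in mitochondrial DNA, had -1.78 and 0.75 in the same order (adjusted p = 0.0372), kept only without S0242, S0276 or S0385 (0.0531 to 0.113 otherwise) and lost with no filter (0.0583). FNDC1 had differences of -0.77 and 1.30, each with an unadjusted p above 0.05, and its call (adjusted p = 0.0419) was kept only without S0276 or S0349 (0.0656 to 0.125 otherwise). It was also lost without the animal block (0.275), with a pseudocount of 0.1 (0.0687) or 5 (0.0586) and with no filter (0.0629).

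PGM5 and HNRNPA1 were called with opposite directions through 1 of 2 entries each, PGM5_HUMAN (interaction -1.73, adjusted p = 0.0105) and ROA1_PANTR (-1.87, adjusted p = 0.0107). With the entries merged their interactions were 0.10 (adjusted p = 0.917) and -0.57 (adjusted p = 0.367), so neither summed gene was called. NTMT2, an N-terminal methyltransferase, had a lower interaction (-1.86, adjusted p = 0.0134) with the same direction in both tissues, at 0.61 in backfat and 2.46 in tenderloin, where it averaged 8.32 ± 1.81 TPM in ET and 0.771 ± 0.754 TPM in L (SD, n = 5 and 4). The interaction call was lost with a pseudocount of 0.1 (adjusted p = 0.189), its backfat means being 0.622 TPM in ET and 0.0603 TPM in L. Its tenderloin difference was one of the 5 called in that tissue alone (adjusted p = 0.0127).

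Many lists differed between the tissues without an opposition. Of 32 collagens, proteoglycans and matrix genes, 6 were called higher, 0 lower and 0 with opposite directions, with medians of 1.59 in backfat and 0.99 in tenderloin. COL1A1, the main fibrillar collagen chain, averaged 4808 TPM in ET backfat and 234 TPM in L backfat, and 25.5 TPM in ET tenderloin and 10.4 TPM in L tenderloin, so its means were higher in ET in both (interaction 3.08, adjusted p = 0.0141). The summed level of 4 fibroblast markers (PDGFRA, DCN, LUM and DPT) was 2997 to 9432 TPM in ET backfat and 840 to 3385 TPM in L backfat, and 361 to 521 TPM in ET tenderloin and 150 to 193 TPM in L tenderloin, and its part in the result was not tested. Of 17 adipocyte markers, 14 were called higher, and the 4 with opposite directions among the 11 present in both tissues included LPL, LIPE and AQP7. PLIN1, the coat protein of the adipocyte lipid droplet, was among the rest, at 4.35 in backfat and 0.45 in tenderloin. Of 40 cytosolic ribosomal proteins, 10 were called lower, 0 higher and 0 with opposite directions, with medians of -0.90 in backfat and -0.28 in tenderloin. Of 20 myeloid markers, 6 were called higher and 0 with opposite directions, and of 30 interferon response genes and 21 antigen presentation genes present in both tissues, 0 were called.

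Of 22 fast fibre genes tested, 0 were called in the interaction, yet 15 of the 19 present in both tissues were lower in ET backfat and higher in ET tenderloin, against 13.2% of all such genes, with medians of -0.59 and 0.60. The summed level of the muscle markers given above had a median of 2.01 TPM in ET backfat and 49.0 TPM in L backfat. The ranges, 1.17 to 122 TPM in ET and 10.2 to 248 TPM in L, overlapped. The part of these markers in the result was not tested. Of 21 slow fibre and Z-disc genes, 4 were called higher, which were CA3, CRYAB, FHL1 and MYL6B. Over the 16 present in both tissues, the list's medians were -0.38 in backfat and -0.49 in tenderloin. Of these 16, 7 were higher in ET backfat and 12 were lower in ET tenderloin. Over the 12061 genes in both tissues, the counts were 8610 and 5503. FHL1, a LIM-domain protein of muscle, had 1.57 in backfat and -0.30 in tenderloin (adjusted p = 0.0292), kept only without S0242 or S0276 (0.0556 to 0.0739 otherwise). It was also lost without the animal block (0.0542), with no filter (0.0560), with scaling (0.0681) and with 1 transcript per gene (0.0691). MYL6B, a slow-type alkali light chain, was lower in ET in both tissues, at -0.60 in backfat and -4.18 in tenderloin (adjusted p = 0.0203). Its tenderloin values were 52.9 to 165 TPM in ET and 460 to 5984 TPM in L, and its call was lost without S0326 (0.0549) or S0377 (0.0584).

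**Figure D4:**
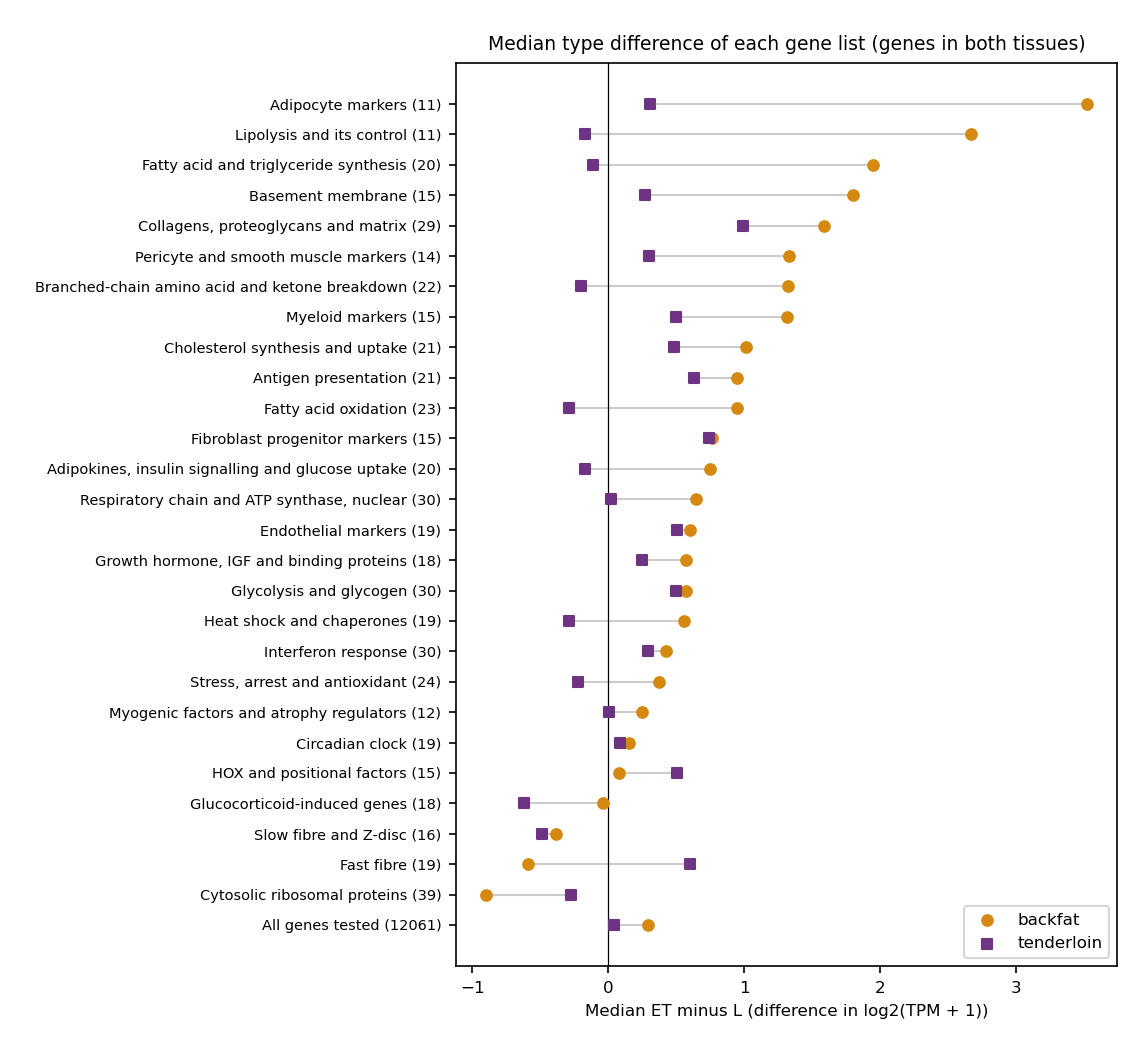
Median ET minus L difference in log2(TPM + 1) in backfat (circles) and tenderloin (squares) for each gene list with at least 10 genes present in both tissues, whose number stands in brackets, and for all such genes. Lipolysis (2.67 and -0.17), branched-chain amino acid and ketone breakdown (1.32 and -0.20) and fatty acid oxidation (0.95 and -0.28) lie on both sides of 0, while collagens and matrix (1.59 and 0.99) lie on one side.

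The loin libraries, which the interaction did not use, came from the same 9 animals. Tested alone, loin had 671 genes higher in ET (4.74%) and 2536 lower (17.9%). Of the 363 genes, 295 (81.3%) were also lower in ET loin, and of the 47 genes, 39 (83.0%) were also higher in ET loin. Together, 334 of the 410 had the tenderloin direction in loin, against 68.1% of the 12061. Among all genes in both tissues that were lower in ET tenderloin, 86.6% were lower in ET loin, and among those higher, 52.5% were higher in ET loin. With loin scaled to a common median ratio, the shares were 66.9% of the 363 against 75.6%, and 89.4% of the 47 against 68.7%. Loin shared the tenderloin direction of the 363 genes no more often than that of all genes lower in ET tenderloin, which include them. For the 47 genes the share was higher than for all genes higher in ET tenderloin. Neither difference was tested.

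PNPLA2 had a loin difference of -1.57 (SE 0.22, adjusted p = 0.00338), close to that in tenderloin. LIPE (-2.02, adjusted p = 0.0140) and both GLUL entries (-2.61, adjusted p = 0.00810, for the pig entry and -2.71, adjusted p = 0.0127, for the dog entry) were also lower in ET loin. LIMS2 (0.87, adjusted p = 0.0251), HLF (1.17, adjusted p = 0.0396) and SULT1A1 (1.63, adjusted p = 0.0167) were higher in ET loin, as in tenderloin. LPL differed by 0.07 in loin (adjusted p = 0.931), with 19.5 ± 15.3 TPM in ET and 17.04 ± 7.88 TPM in L (SD, n = 5 and 4), and BMP1 by -0.21 (adjusted p = 0.629). CA3 and AQP7 (0.99, adjusted p = 0.0275) were higher in ET loin, against the tenderloin direction.

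**Figure D5:**
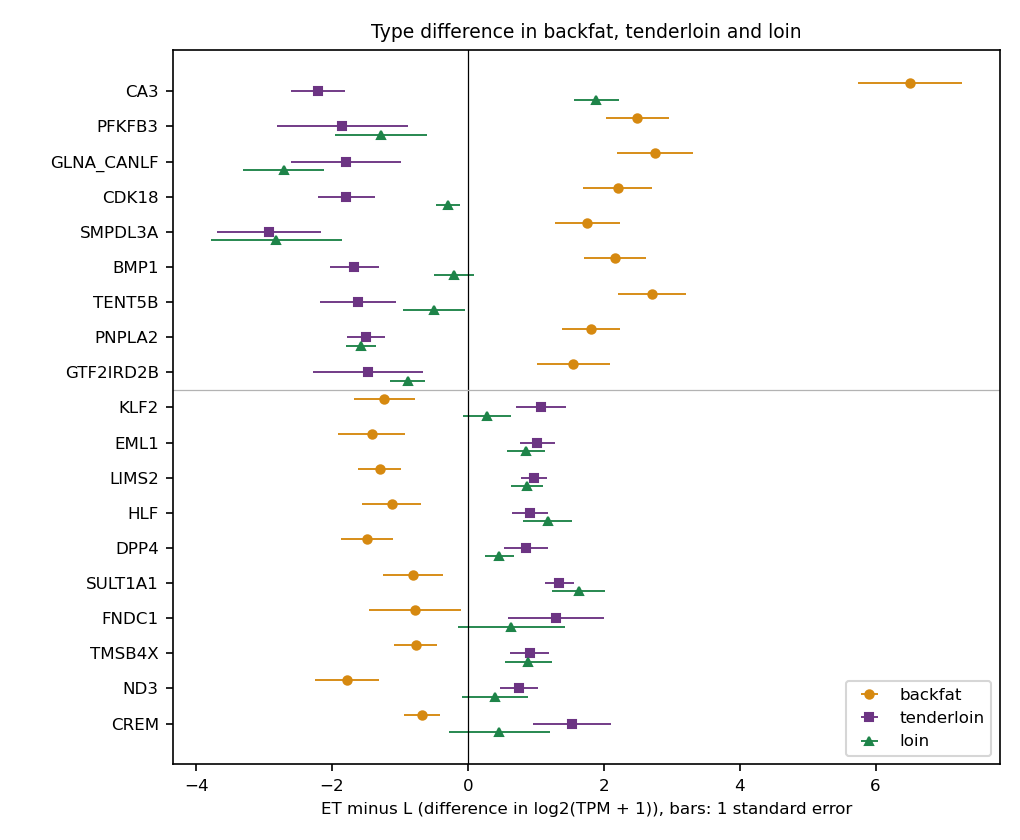
ET minus L difference in log2(TPM + 1) with its standard error in backfat (circles), tenderloin (squares) and loin (triangles) for 19 described genes with the largest opposition, 9 higher and 10 lower in ET backfat. Loin lies on the tenderloin side of 0 for all of them except CA3, at 1.89 in loin and -2.21 in tenderloin.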

How the data were processed

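Per the labels' protocols, RNA was isolated with TRIzol and sequenced from TruSeq stranded mRNA libraries. The authors deposited TPM for 57085 assembled transcripts, quantified with Salmon 1.10.0 after trimming with Trimmomatic 0.36, per the submitters' processing notes; the pig build named there, Sscrofa11.1, has no stated role. TPM keeps no depth, so read numbers are unknown and no counting interval is given. Transcripts with a best Swiss-Prot hit at an E value of at most 1e-10 were summed per entry (32155 transcripts); repeat, retroviral and non-animal hits were left out, and 7.05% to 16.5% of TPM carried no gene. Symbols come from the entry names and are those of the closest protein, with a median identity of 92.9%.

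The deposited TPM were taken to log2(TPM + 1) and tested two-sided in limma 3.58.1 (R 4.3.3) with a variance trend, adjusting p by Benjamini-Hochberg across every gene in the fit. The interaction had the animal as a fixed block, tissue, and tissue by type; backfat, tenderloin and loin were each also fitted alone on 9 libraries. A difference on this scale understates the change of low genes. The fit was checked on simulated data. Libraries pair because the labels give the same animal for both tissues: deviations from group means correlated with a median r of 0.23 across genes in 9 same-animal pairs (0.12 to 0.33), against -0.03 in 32 pairs of different animals. The replicates are separate animals.

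The members, the 34 gene lists (689 of 731 genes matched) and the tests were chosen with earlier results of these data known. Genes were named by rule: the genes called in both tissues alone with opposite directions (0); among called opposite genes with at least 5 TPM in the higher type of each tissue, the 10 per direction with the largest smaller difference of the 2 tissues; the 5 per direction with the smallest interaction p; and up to 4 called genes per list by smallest p, of which some are left unnamed. 1 result that the rule takes is not reported here. The gene PM20D1 and the entries HS3S6, KDM5C_PIG, ERLN2_PONAB and S61A2_MOUSE were named after their values were seen.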

Additional observations from a re-analysis of the deposited data

Results flagged for a closer look

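The type difference departed between backfat and tenderloin, by the interaction test, for 677 genes. Among the genes described above, the interaction in log2(TPM + 1) was 8.71 for CA3, 4.93 for ALDOC, 4.69 for SMPDL3A, 4.66 for LPL, 4.55 for GLNA_CANLF, 4.34 for PFKFB3, 4.33 for TENT5B, 4.21 for MCCC2 and 4.05 for AGPAT1. It was 3.99 for CDK18, 3.83 for BMP1, 3.32 for PNPLA2 and 3.02 for GTF2IRD2B. In the other direction it was -2.53 for ND3, -2.44 for EML1, -2.34 for DPP4, -2.31 for KLF2, -2.28 for LIMS2, -2.21 for CREM, -2.15 for SULT1A1 and -2.07 for FNDC1. It was -2.03 for HLF, -1.87 for ROA1_PANTR, -1.86 for NTMT2, -1.73 for PGM5_HUMAN and -1.68 for TMSB4X.

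Single animals stood far from the rest of their group, by Dixon's test on TPM, in 15 of the 104 groups looked at (26 genes, 4 groups each); chance flags about 1 group in 20. In ET backfat these were S0326 for BMP1 (143 TPM) and S0309 for SULT1A1 (1230 TPM) and FNDC1 (77.6 TPM). In ET tenderloin they were S0276 for PFKFB3 (32.9 TPM), S0235 for CDK18 (2.85 TPM) and GTF2IRD2B (6.05 TPM), S0242 for ALDOC (7.25 TPM) and S0309 for DPP4 (13.4 TPM). In L backfat, S0385 stood apart for KLF2 (354 TPM). In L tenderloin the animals were S0385 for PFKFB3 (256 TPM), CDK18 (19.1 TPM) and GTF2IRD2B (59.7 TPM), S0377 for LPL (316 TPM), S0384 for KLF2 (35.2 TPM) and S0349 for SULT1A1 (11.6 TPM). S0385 thus accounts for 3 of the 6 in L tenderloin.

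The backfat library of S0355, which entered no comparison, had 22552 TPM of CKM, a creatine kinase of muscle, where the other backfat libraries had at most 91.6 TPM, and 3.33 TPM of ADIPOQ, where the others had at least 182 TPM.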

How the results depend on the processing

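The count of opposite genes, 410, was 299 to 422 under every other setting named in this paragraph or run beside them (another pseudocount, filter, E value or transcript choice), except 250 with all 10 animals. Without the replicate block, 583 genes were called higher, 96 lower and 422 with opposite directions. With median-ratio scaling within each tissue, 383 were called higher and 150 lower, 576 genes were called in backfat, against 915, and 274 of 328 opposite genes were shared with the 410. With no filter, 51 genes were lower in the interaction and 2 were called in tenderloin, against 5. Tenderloin calls were 10 with a pseudocount of 0.1 and 11 with robust moderation. With all 10 animals, so with S0355, 10 genes were lower in the interaction, 573 were called in backfat, 118 in tenderloin and 1 (PNPLA2) in both with opposite directions. Merging entries over species, chosen after seeing the data, gave 62 tenderloin calls, 3 genes called in both tissues and an interaction of 0.10 for PGM5_HUMAN, the only named gene whose interaction reversed. Of the 85 named genes, 9 lost their call without the replicate block, 10 with a pseudocount of 0.1 and 6 with one of 5. At an E value of at most 1e-50, 2 calls were lost and 74 kept, and the other named genes were not tested. No filter ended 14 calls, scaling 11, 1 transcript per gene 15, all 10 animals 34 and merged entries 2. None was lost with robust moderation or, of the 79 tested, with a mean of at least 5 TPM.

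Leaving out 1 animal at a time gave 184 (without S0384) to 776 (without S0276) higher genes, 10 (without S0326) to 107 (without S0276) lower genes and 125 (without S0384) to 544 (without S0276) opposite genes. The opposite count was also over 1.5 times smaller without S0235 (244), S0242 (213), S0326 (138) and S0377 (163). Backfat calls ranged from 153 to 1261, tenderloin calls from 0 to 33, and genes called in both from 0 to 3 (BMP1, CA3 and PM20D1, without S0349). Of the 410 genes, 93 were called with opposite directions in all 9 of these fits, and 43 of the 85 named genes, opposite or not, stayed called in all 9. Read depth is unknown, so low TPM values carry a counting error that cannot be given.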
